A study of Mus musculus with 22 samples.

Results

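The 10 genes described here build the mitotic spindle or divide the cell, and they were followed, among 11208 genes measured, in mouse fibroblasts leaving a resting state. They were Tpx2, Aurka, Hmmr, Aspm, Nusap1 and Ckap2, whose products act on spindle microtubules and spindle poles, and Prc1, Racgap1, Ect2 and Anln, whose products act at the spindle midzone and the cleavage furrow. The genes were chosen by name for these roles, with earlier results of these data known. All 10 were found by gene symbol in the table of normalized counts.

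In a dividing cell, TPX2 is released near chromosomes, nucleates microtubules and switches on the kinase Aurora A, while ASPM and HMMR work at the poles and NUSAP1 and CKAP2 bind and steady microtubules. After the chromosomes separate, PRC1 bundles the overlapping microtubules of the midzone, where the centralspindlin subunit RACGAP1 recruits ECT2. ECT2 activates the small GTPase RhoA, and anillin then ties the contractile ring of actin and myosin to the membrane. In cycling fibroblasts these genes are known as late genes, with most of their RNA in G2 and mitosis, and resting cells repress many of them through the DREAM complex, which binds the cell cycle genes homology region (CHR).

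The cells were NIH/3T3, an established mouse embryonic fibroblast line, with a stably integrated doxycycline-inducible construct. One line carried E2F1, a transcription factor that drives entry into the cell cycle, and the other an empty vector (EV). The labels do not say whether each line was a clone or a pool. All cells were starved for 48 h in 0.25% serum. The E2F1 line and the EV line then received 500 ng/ml doxycycline and were taken at 0, 2, 6 and 12 h, and the EV line also received 10% serum and was taken at 2, 6 and 12 h. Serum and doxycycline time courses of the EV line share the EV 0 h libraries. Each of the 11 groups held 2 libraries of polyadenylated RNA, 22 in all, and the labels do not say that the 2 came from separate cultures, so p-values measure only the spread between these libraries.

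Each library's deposited values summed to between 34014608 and 46057140, and the 10 genes took from 0.0191% to 0.334% of a library's total. All 10 fibroblast markers looked for were in the table, and none of 16 markers of epithelial, endothelial, blood, muscle, fat and glial cells was. E2f1 itself stood at 1703 and 1637 in the E2F1 line at 0 h, at 1535 and 1755 at 2 h, at 3806 and 3602 at 6 h and at 2683 and 2845 at 12 h. In the EV line it stood at 1635 and 1655 at 0 h, lay between 1307 and 1635 at 2 to 12 h of doxycycline and reached 4615 and 4247 at 12 h of serum. The sources used here do not say whether reads of the construct are counted in this row, so the values may not measure the construct. Ddx3y, a gene of the Y chromosome, set the lines apart at 0 h, with 580 and 521 in the E2F1 line and 9 and 4 in the EV line. After 2 h it stood at 329 and 316 in the E2F1 line, 103 and 71 in the EV line with doxycycline, and 132 and 170 in the EV line with serum. The change from 0 h was not called in the E2F1 line, at -0.77 on the log2 scale (limma adjusted p 0.400). It was 3.61 in the EV line with doxycycline and 4.41 with serum (limma adjusted p 7.97e-05 and 1.71e-08). The EV line with serum had 48 and 35 at 6 h and 29 and 19 at 12 h, still above EV 0 h by 2.57 and 1.79 on the log2 scale (limma adjusted p 2.01e-05 and 0.000815). At 6 h of doxycycline it stood at 31 and 18 in the EV line and at 415 and 435 in the E2F1 line. Neither change from 0 h was called, at 1.80 and -0.37 on the log2 scale (limma adjusted p 0.165 and 0.459). The 2 h libraries of each line thus lay towards the other line for this gene. The later serum libraries and the 6 h doxycycline libraries did so to a smaller degree. What part that has in the other values of these libraries was not tested. Results at 2 h rest on the 2 h libraries and cannot be given without them.

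The EV line also had a split between replicates that took in all 10 genes. At EV 0 h, replicate 2 lay above replicate 1 in 10 of 10, by a median log2 difference of 0.96, and all 10 genes were at least 1.5-fold apart, against 6% of all genes. The median difference was 0.92 in the EV line at 6 h of doxycycline, 0.86 at 6 h of serum and 0.50 at 12 h of doxycycline, each with replicate 2 higher in all 10. In the E2F1 line the median differences stayed between -0.22 and 0.25, but all 10 genes were higher in replicate 2 at 2 h and lower in it at 6 h. At 2 h of serum all 10 were also lower in replicate 2, by a median of -0.19. A comparison list of 26 genes of DNA replication and the G1/S transition also differed at EV 0 h, by a median of 0.63. For comparisons with EV 0 h, the effect of leaving out a library is therefore given where it changed calls or the median's sign. Single changes that were not called also changed sign in some of these comparisons and are not listed.

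**Figure D1:**
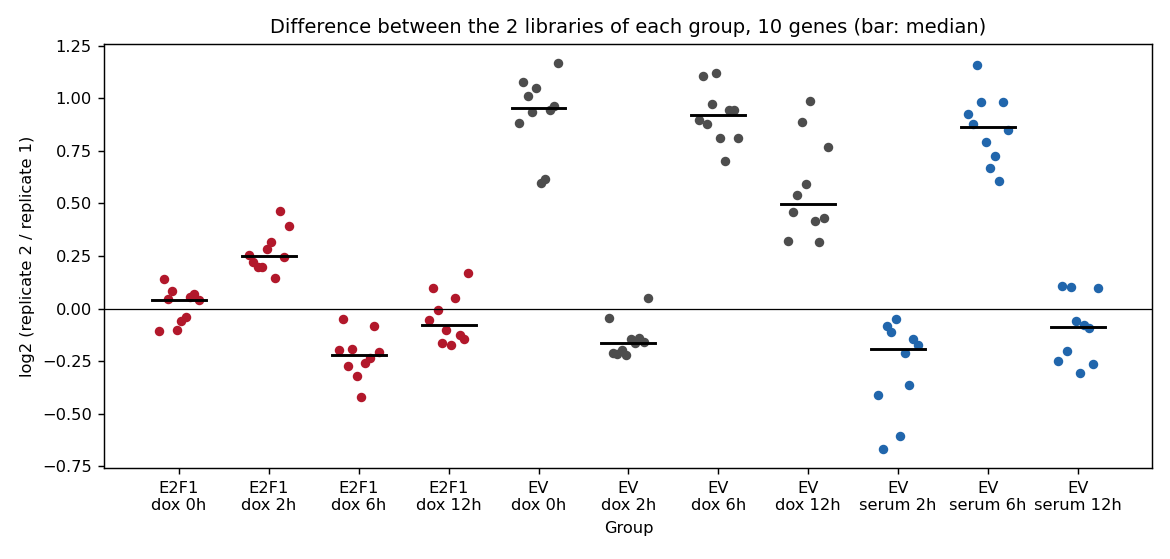
The log2 ratio of replicate 2 to replicate 1 (vertical axis) is drawn for each group (horizontal axis), with 1 point for each of the 10 genes and a bar at their median. All points of EV 0 h lie between 0.60 and 1.17 and those of EV doxycycline 6 h between 0.70 and 1.12, while the groups of the E2F1 line lie between -0.42 and 0.46.

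Because all 10 genes were higher at 12 h of doxycycline in the E2F1 line, the DNA around their start sites was searched for the CHR and for sites of other factors of the cell cycle. RefSeq (GRCm38.p6, the authors' mm10) had a promoter entry for 9 of the 10, all but Tpx2. The CHR word TTTGAA was looked for on the gene's own strand within 50 bases of the start, a window chosen after seeing the data. The word was there in 7 of the 9, against 2.63% of 27025 promoters and 1.59% of the 8609 promoters of genes in the table. It lay there in 4 of 28 promoters of other spindle assembly genes, 4 of 19 of other cytokinesis genes, 0 of 21 of the G1/S list and 2 of 6 of fibroblast marker genes. The whole entry, from 250 bases before to 50 after the start, was also chosen as a window after seeing the data. In it 8 of 9 held the word, against 10.1% of promoters. Shares in both windows describe these promoters and are not a test. Within only the 250 bases before the start the count was 2 of 9, Ect2 and Ckap2, against 9.02%, since the word nearest the RefSeq start begins after it in 6 genes and spans it in Prc1. Nusap1 had no match in any of these windows. In the lines that follow, 30 bases around the word nearest the start are shown 5′ to 3′ on the gene's strand, with TTTGAA in capitals, so that its surroundings can be compared.

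Aurka (chr2:172370521-172370550, minus strand): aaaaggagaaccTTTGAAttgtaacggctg
Hmmr (chr11:40733412-40733441, minus strand): agttgaggtaaaTTTGAAttcaggcgagct
Aspm (chr1:139454767-139454796, plus strand): ggaggcgcgataTTTGAAccgagcaaaagc
Ckap2 (chr8:22185903-22185932, minus strand): gctttgttcgatTTTGAAatttctcgccgg
Prc1 (chr7:80294434-80294463, plus strand): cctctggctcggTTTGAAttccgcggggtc
Racgap1 (chr15:99651634-99651663, minus strand): ctggtgcgtgatTTTGAAccggatctggcg
Ect2 (chr3:27153829-27153858, minus strand): gagagagcgactggattttTTTGAAtcgga
Anln (chr9:22389161-22389190, minus strand): tgaaattcaaatTTTGAAcggccgtggtag

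Counting the first transcribed base of the RefSeq entry as 1, the word TTTGAA began at base 6 in Racgap1, 7 in Aspm, 9 in Hmmr, 29 in Anln, 33 in Aurka and 40 in Ect2. It spanned the start in Prc1 and began 101 bases before it in Ckap2. GENCODE M21 puts the start of Hmmr 15, of Anln 18 and of Aurka 35 bases further into the gene, so that from its start the word lies before the start in Hmmr, spans it in Aurka and begins at base 11 in Anln. Ect2 had another copy 114 bases before the start, and Anln another copy on the opposite strand. The variant TTCGAA, which reads the same on both strands, was searched too and changed none of these counts.

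The CCAAT box, a word bound by the factor NF-Y, was found on either strand in the 250 bases before the start in 7 of 9, against 34.5% of promoters. The 2 without it were Nusap1 and Anln. Hmmr held 5 copies, all on the opposite strand, and Aspm 3. The box was in 17 of 28 promoters of other spindle assembly genes, 6 of 19 of other cytokinesis genes, 15 of 21 of the G1/S list and 2 of 6 of fibroblast marker genes. The words TTTCCCGC, TTTGGCGC, TTTCGCGC and TTTGCCGC, forms of the E2F site, were in 0 of 9 windows of 300 bases on either strand, against 2.33% of promoters and 7 of 21 on the G1/S list. That says only that these letters are not in these windows. No match overlapped another. The 120 bases before the start are shown 5′ to 3′ for the 4 genes whose stretch held a CCAAT box and no annotated exon, with the box in capitals (CCAAT, or ATTGG where it lies on the opposite strand).

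Hmmr (chr11:40733438-40733557, minus strand): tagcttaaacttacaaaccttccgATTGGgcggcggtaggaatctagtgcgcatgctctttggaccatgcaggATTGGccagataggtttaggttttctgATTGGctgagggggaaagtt
Ckap2 (chr8:22185820-22185939, minus strand): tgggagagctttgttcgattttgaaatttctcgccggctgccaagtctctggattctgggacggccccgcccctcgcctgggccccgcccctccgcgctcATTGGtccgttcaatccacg
Racgap1 (chr15:99651657-99651776, minus strand): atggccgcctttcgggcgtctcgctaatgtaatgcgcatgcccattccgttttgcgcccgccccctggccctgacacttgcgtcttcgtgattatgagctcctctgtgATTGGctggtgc
Ect2 (chr3:27153879-27153998, minus strand): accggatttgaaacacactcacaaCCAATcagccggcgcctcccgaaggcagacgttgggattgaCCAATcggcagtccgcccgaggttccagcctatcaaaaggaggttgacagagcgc

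**Figure D2:**
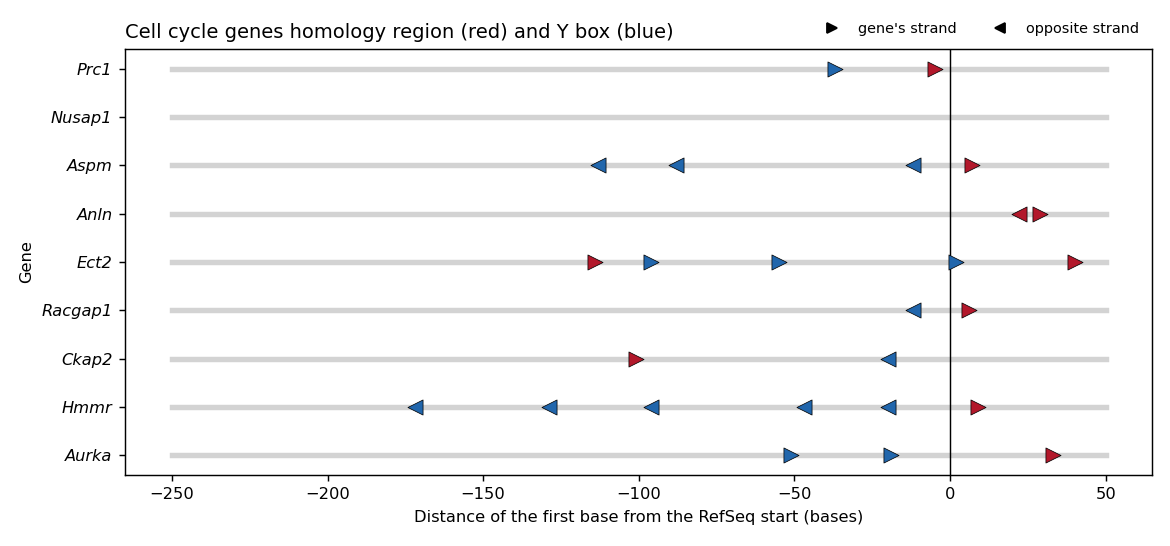
Matches in the RefSeq promoter entries of 9 genes are placed by the distance of their first base from the start (horizontal axis, bases), with the CHR word in red, the CCAAT box (Y box) in blue and arrows for the strand. The red arrows of 7 genes lie within 50 bases of the start, and Nusap1 has no match.

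Across the 11 groups the order of the levels was the same at the top for every gene. The E2F1 line at 12 h of doxycycline ranked first and the E2F1 line at 6 h ranked second in 10 of 10 by mean normalized count. Both libraries at E2F1 12 h lay above both at E2F1 6 h in all 10, as in 31.3% of all genes. Below that the order was not sharp: the E2F1 0 h and 2 h groups overlapped in every gene. With doxycycline, EV 0 h overlapped EV 2 h and also EV 6 h in every gene. The lowest place was held by EV doxycycline 12 h or serum 2 h. Per kb of annotated exon, the scale on which genes can be compared, the mean level at E2F1 0 h ran from 201 for Aspm to 650 for Ckap2, and at E2F1 12 h from 688 for Aspm to 3443 for Ckap2.

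**Figure D3:**
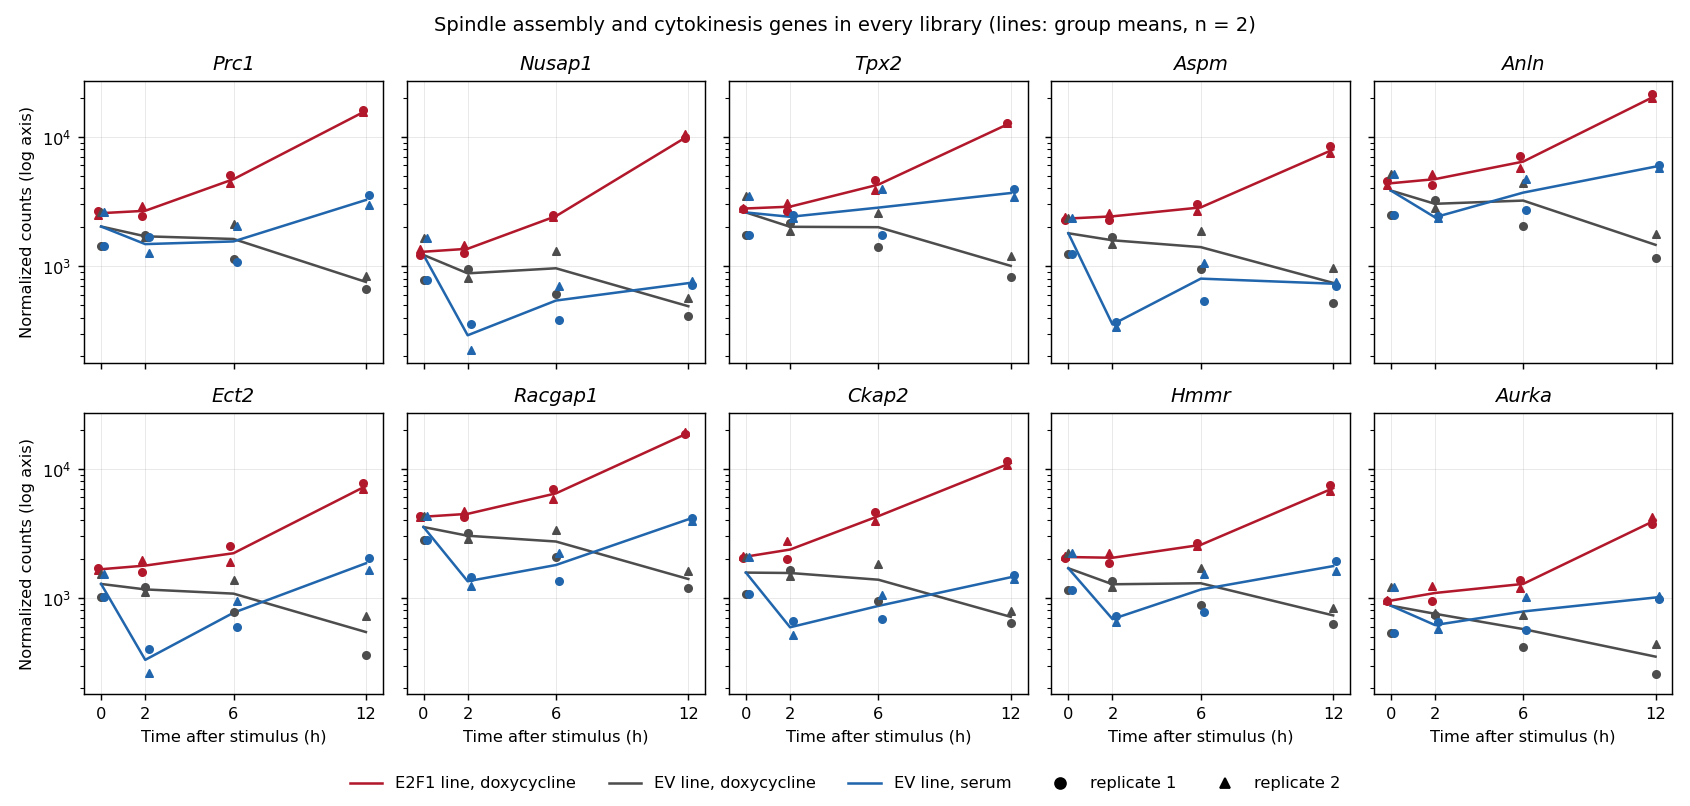
Normalized counts (vertical log axis) of each gene are plotted against hours after the stimulus, with circles and triangles for replicates 1 and 2 and lines through the group means. The E2F1 line reaches 3766 to 21503 at 12 h, the EV line with doxycycline 260 to 1756 and the EV line with serum 704 to 6005, and the EV 0 h libraries are drawn in both EV courses.

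In the E2F1 line doxycycline was followed by a late rise of all 10 genes, by 3.40- to 7.88-fold. At 2 h none of the 10 changed, at 6 h 4 were higher, and at 12 h all 10 were higher. Changes here and below are differences of log2(value + 1) from a fit over all groups with limma, a linear model with moderated errors, and a gene counts as changed at an adjusted p of at most 0.05. In bulk RNA, more cells with a transcript and more transcript per cell cannot be told apart.

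At 2 h the log2 changes in the E2F1 line lay between -0.02 for Hmmr and 0.18 for Aurka, and limma called 0 of 10 genes, where it called 1.86% of all genes. None had an unadjusted p under 0.05. In no gene did both 2 h libraries lie on one side of both 0 h libraries. Of all genes, 27.3% had both above and 23.1% had both below. With SE of 0.23 to 0.34, even changes well above the SE could be missed. At 6 h, for example, a log2 change of 0.61 for Tpx2 (SE 0.32) was not called. The 2 h libraries are also among those with the Ddx3y values given above.

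At 6 h 2 spindle genes and 2 midzone genes were called higher. Ckap2, a microtubule-binding protein, stood at 2049 and 2127 at 0 h and at 4641 and 3947 at 6 h, a log2 change of 1.04 (SE 0.28 and adjusted p 0.00519). Nusap1, which bundles spindle microtubules around chromosomes, went from 1227 and 1355 to 2476 and 2389, a log2 change of 0.92 (SE 0.34 and adjusted p 0.0315). For both genes the libraries at 6 h were clear of those at 0 h. Prc1, the midzone bundler, went from 2661 and 2471 to 5025 and 4380, a log2 change of 0.87 (SE 0.29 and adjusted p 0.0181). Racgap1, the centralspindlin subunit, went from 4308 and 4193 to 7019 and 5865, a log2 change of 0.59 (SE 0.23 and adjusted p 0.0361).

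These 4 of 10 compare with 28.8% of all genes called higher at 6 h. The other 6 had log2 changes from 0.28 for Aspm to 0.61 for Tpx2 and did not pass. Their libraries did not overlap either: in 10 of 10 genes the lower 6 h library exceeded the higher 0 h library, as in 38.6% of all genes. The calls depend on the spread that the fit takes from the other groups. With only the E2F1 groups compared in the fit, limma called 10 of 10 higher, against 29.6% of all genes, while only Ckap2 was called without either 0 h library, without 6 h replicate 1 or after quantile normalization.

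At 12 h the 6 genes of spindle assembly rose in this way. Tpx2, the activator of Aurora A, went from 2748 and 2832 at 0 h through 4667 and 3867 at 6 h to 12854 and 12805, a log2 change of 2.20 (SE 0.32 and adjusted p 1.21e-05). Aurka, which encodes Aurora A, went from 940 and 967 through 1375 and 1193 to 3766 and 4236, a log2 change of 2.07 (SE 0.33 and adjusted p 2.70e-05). The kinase and its activator thus rose by 4.19-fold and 4.60-fold. Nusap1 went to 9833 and 10523, a log2 change of 2.98 (SE 0.34 and adjusted p 6.33e-07) and the largest of the 10. Ckap2 went to 11552 and 10588, a log2 change of 2.40 (SE 0.28 and adjusted p 8.72e-07). These were also the 2 genes with the largest changes at 6 h. Hmmr, the pole protein also called RHAMM, went from 2022 and 2124 through 2647 and 2502 to 7421 and 6709, a log2 change of 1.77 (SE 0.30 and adjusted p 6.89e-05). Aspm, the pole protein whose human gene is mutated in inherited microcephaly, went from 2264 and 2400 through 3031 and 2655 to 8431 and 7524, a log2 change of 1.77 (SE 0.33 and adjusted p 0.000148). Hmmr and Aspm had the smallest changes at 12 h.

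The 4 genes of the midzone and furrow rose by similar amounts. Prc1 reached 16202 and 15596 at 12 h, a log2 change of 2.63 (SE 0.29 and adjusted p 4.19e-07). Racgap1 reached 18613 and 19269, a log2 change of 2.16 (SE 0.23 and adjusted p 2.40e-07). Ect2, the exchange factor that RACGAP1 recruits, went from 1702 and 1634 at 0 h through 2541 and 1896 at 6 h to 7784 and 6905, a log2 change of 2.14 (SE 0.31 and adjusted p 9.90e-06). The 2 partners in RhoA activation therefore changed by 4.46-fold and 4.39-fold, a gap smaller than either SE. Anln, the ring scaffold, went from 4524 and 4221 through 7144 and 5717 to 21503 and 20039, a log2 change of 2.25 (SE 0.32 and adjusted p 8.74e-06). Anln at 12 h gave the highest value of any of the 10 genes in any library.

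The 10 of 10 at 12 h compare with 31.8% of all genes called higher, and with a rise of at least 2-fold the counts were 10 of 10 and 10.6%. The median over the 10 was 2.18, beside -0.02 over all genes. From 6 h to 12 h all 10 rose again, by log2 changes of 1.37 for Ckap2 to 2.06 for Nusap1 (adjusted p 6.97e-05 to 0.00213), where 15.1% of all genes were higher. The median of that step was 1.62, larger than the median of 0.57 over the first 6 h. The 12 h calls held in all 140 combinations of gene and alternative setting, with the smallest log2 change at 1.65, for Hmmr after quantile normalization.

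**Figure D4:**
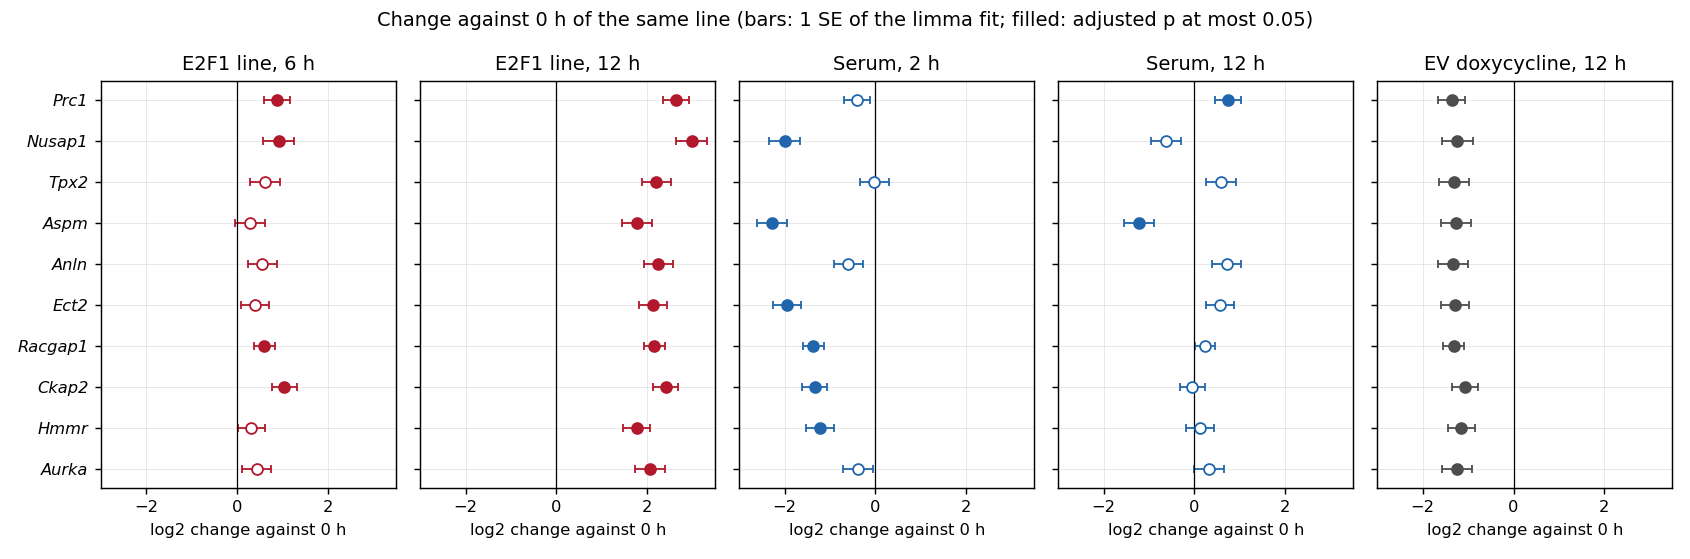
Log2 changes against 0 h of the same line (horizontal axis) are drawn for each gene with bars of 1 SE, filled where the adjusted p was at most 0.05. All 10 points are filled and at 1.77 or more for the E2F1 line at 12 h, all 10 are filled and at -1.07 or less for the EV line at 12 h of doxycycline, and serum has filled points on both sides.

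In the authors' deposited table of E2F1 12 h against 0 h, 8 of the 10 were listed among 510 genes, with log2 fold changes from 2.08 for Aurka to 2.99 for Nusap1. Aspm and Hmmr, with the smallest limma changes at 12 h, were not listed. None of the 10 was listed in the authors' deposited tables for 2 h or 6 h, which hold 10 and 264 genes. In none of the authors' deposited tables was a gene of the 10 listed with a change smaller than 2.08 in size. Absence from these tables is therefore not read here as no change.

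In the EV line, doxycycline alone was followed by lower levels of all 10 genes at 12 h, not higher ones. At 2 h the log2 changes lay between -0.38 and 0.06 and limma called 0 of 10, where it called 7.35% of all genes. At 6 h they lay between -0.54 and -0.18 and 0 of 10 were called, beside 0.134% of all genes. None had an unadjusted p under 0.05 at either time, and the libraries of every gene overlapped those of 0 h. Of all genes, 28.1% at 2 h and 19.3% at 6 h had both libraries above both of 0 h. Both lay below in 22.6% and 14.7%. Without EV 0 h replicate 1 the median over the 10 was -0.65 at 2 h and -0.81 at 6 h, and without EV 0 h replicate 2 it was 0.24 and 0.11, with 0 called each time. Leaving out the 6 h replicates gave 0.13 without replicate 1 and -0.81 without replicate 2.

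At 12 h Racgap1 stood at 1201 and 1602, against 2795 and 4279 at 0 h, and fell by 1.32 on the log2 scale (SE 0.23 and adjusted p 0.00349). Prc1 stood at 670 and 838, against 1423 and 2623, and fell by 1.37 (SE 0.29 and adjusted p 0.0118). In both genes the 12 h libraries lay below both 0 h libraries. Anln stood at 1163 and 1756 against 2503 and 5183, and Ect2 at 365 and 725 against 1021 and 1545. The spindle genes behaved alike, as with Tpx2 at 818 and 1189 against 1724 and 3474, Aurka at 260 and 443 against 537 and 1207, and Nusap1 at 412 and 566 against 783 and 1655. Aspm at 520 and 962, Ckap2 at 636 and 792 and Hmmr at 624 and 842 were the remaining 3.

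All 10 were called lower, with log2 changes from -1.37 for Prc1 to -1.07 for Ckap2, where 3.42% of all genes were called lower. Both 12 h libraries lay below both 0 h libraries in 10 of 10, as in 21.8% of all genes. The calls were lost without single libraries: 0 of 10 were called without EV 0 h replicate 2 or without EV 12 h replicate 1, at medians of -0.80 and -0.97. The authors' deposited table for this comparison lists 4 genes and none of the 10. The changes here were smaller in size than any that the authors' tables list for the 10 genes (2.08 or more), so absence is not read as no change. Without the 2 h doxycycline libraries 4 were called, with only EV 0 h and 12 h in the fit only Racgap1 was (0.5% of all genes lower), and without a trend in the moderation 2 were. The labels give no group kept starved for 12 h without doxycycline, so drug and further hours in culture cannot be told apart.

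Serum, the usual stimulus for resting fibroblasts, was first followed by lower levels of most of these genes. At 2 h, 6 of 10 were lower than at EV 0 h, beside 33.5% of all genes called lower, and 4 did not pass. Aspm stood at 367 and 340, against 1232 and 2356 at 0 h, a log2 change of -2.27 (SE 0.33 and adjusted p 6.42e-06). Nusap1 stood at 358 and 225, against 783 and 1655, a log2 change of -2.00 (SE 0.34 and adjusted p 3.80e-05). Ect2 stood at 401 and 263, against 1021 and 1545, a log2 change of -1.95 (SE 0.31 and adjusted p 1.71e-05). In these 3 genes the higher library at 2 h was less than the lower one at 0 h, as in 7 of the 10 and in 40% of all genes. Racgap1 (1445 and 1248), Ckap2 (667 and 519) and Hmmr (721 and 652) had log2 changes of -1.36, -1.34 and -1.23.

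The genes that did not pass at 2 h included the pair of Aurora A and its activator. Tpx2 stood at 2472 and 2338, against 1724 and 3474 at 0 h, a log2 change of -0.03 (SE 0.32). Aurka stood at 655 and 580, against 537 and 1207, a log2 change of -0.39 (SE 0.33). Prc1 at 1688 and 1270 had a log2 change of -0.40, and Anln at 2427 and 2343 one of -0.59. Both 2 h libraries lay between the 2 libraries of 0 h in Tpx2 and Aurka. Without EV 0 h replicate 1, Prc1, Anln and Aurka were called lower too, and without EV 0 h replicate 2 Hmmr was not called; with libraries scaled to equal totals 9 of 10 were called lower. Of the 10, only Aspm was listed in the authors' deposited table for serum at 2 h, with a log2 fold change of -2.26. The authors' deposited tables for serum at 6 h (795 genes) and 12 h (726 genes) list none of the 10.

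At 6 h of serum 5 of 10 were lower, beside 31% of all genes. They were Aspm at 537 and 1062 (log2 change -1.17), Nusap1 at 381 and 701 (-1.14), Racgap1 at 1355 and 2241 (-0.99), Ckap2 at 688 and 1047 (-0.81) and Ect2 at 593 and 944 (-0.75). In these 5 genes both 6 h libraries lay below both 0 h libraries, as in 37.4% of all genes. Only Racgap1 was called without EV 0 h replicate 2 or without serum 6 h replicate 1. Tpx2 had a log2 change of 0.10 and Anln one of -0.01.

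By 12 h of serum Prc1 was higher than at 0 h and Aspm was still lower. Prc1 stood at 3527 and 2963, a log2 change of 0.74 (SE 0.29 and adjusted p 0.0318), beside 36% of all genes higher. Aspm stood at 704 and 757, a log2 change of -1.22 (SE 0.33 and adjusted p 0.00342), beside 29.7% of all genes lower. The libraries of neither gene overlapped those of 0 h. The other 8 did not pass, with log2 changes from -0.63 for Nusap1 at 710 and 766 to 0.71 for Anln at 6005 and 5764. In Prc1, Anln and Ect2 the lower 12 h library exceeded the higher 0 h library, as in 44.1% of all genes. In Nusap1 and Aspm the higher 12 h library was less than the lower 0 h library, as in 38.4% of all genes.

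These calls changed with the 0 h library. The median over the 10 was 0.28 with all libraries and -0.17 without EV 0 h replicate 1. Without EV 0 h replicate 2, 4 genes were called higher and Aspm was not called, at -0.75. Without EV 0 h replicate 1, 2 genes were called lower and Prc1 was not called, at 0.30, nor was it without serum 12 h replicate 1, at 0.62. After quantile normalization or scaling to equal totals Aspm was called and Prc1 was not, at adjusted p up to 0.0747.

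Later comparisons within the EV line did not use those 0 h libraries. From 6 h to 12 h of serum 4 of 10 rose, beside 19.3% of all genes. Ect2 went from 593 and 944 to 2052 and 1657, a log2 change of 1.30 (SE 0.31 and adjusted p 0.00255). Racgap1 went from 1355 and 2241 to 4170 and 3949, a log2 change of 1.22 (SE 0.23 and adjusted p 0.000328). Prc1 rose by 1.13 and Ckap2 by 0.77 on the log2 scale. Aspm had a change of -0.05 from 6 h to 12 h. Leaving out serum 6 h replicate 1 left 2 calls and leaving out serum 6 h replicate 2 gave 7.

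At 12 h the EV cells with serum had higher levels than the EV cells with doxycycline in 8 of 10, beside 37.9% of all genes. The log2 differences of these 8 ran from 1.03 for Ckap2 to 2.11 for Prc1 (adjusted p 3.86e-06 to 0.00344). Tpx2 stood 1.89 and Anln 2.04 higher. The 2 genes that did not pass were Nusap1, at 0.61 (SE 0.34 and adjusted p 0.117), and Aspm, at 0.05 (SE 0.33 and adjusted p 0.910). For Aspm the serum libraries, at 704 and 757, lay between the doxycycline libraries at 520 and 962. Leaving out any 1 of the 4 libraries kept the count at 8.

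The difference between the changes of the lines was tested directly. At 12 h of doxycycline the change in the E2F1 line exceeded that in the EV line in 10 of 10, beside 27.3% of all genes. The differences of log2 changes ran from 2.91 for Hmmr (SE 0.43) to 4.21 for Nusap1 (SE 0.48), with adjusted p from 1.19e-07 to 3.12e-05. Part of each difference is the fall in the EV line, and without subtracting 0 h the levels at 12 h differed by 3.28 for Hmmr to 4.41 for Prc1. All 10 calls held when any 1 of the 8 libraries was left out.

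At 6 h the difference was called in 4 of 10, beside 22.2% of all genes. These were Nusap1 at 1.26, Ckap2 at 1.22, Prc1 at 1.19 and Racgap1 at 0.98, with adjusted p from 0.0242 to 0.0498. Leaving out a library gave from 0 to 8 calls, and 0 without EV 0 h replicate 2, EV 6 h replicate 1, either E2F1 0 h library or E2F1 6 h replicate 1. The levels at 6 h, without subtracting 0 h, differed in 10 of 10, by 1.06 for Hmmr to 1.70 for Ckap2, beside 60.2% of all genes called in that comparison. At 2 h 0 of 10 differed, beside 0.143% of all genes, and none had an unadjusted p under 0.05. The median difference at 2 h was 0.27 with all libraries and -0.17 without EV 0 h replicate 2.

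Before doxycycline the lines did not differ detectably in these genes. The E2F1 line at 0 h was higher by 0.18 for Nusap1 to 0.49 for Ckap2 on the log2 scale, with SE of 0.23 to 0.34, and limma called 0 of 10 where it called 15% of all genes. None had an unadjusted p under 0.05. The median over the 10 was 0.33 with all libraries and -0.07 without EV 0 h replicate 1. Ckap2 was called higher in the E2F1 line, at 0.96, without EV 0 h replicate 2.

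E2F1 and serum were compared as changes from each line's own 0 h, so stimulus and line cannot be told apart. At 12 h the change with E2F1 exceeded that with serum in 10 of 10, beside 25% of all genes. The difference was 3.60 for Nusap1 (SE 0.48 and adjusted p 8.10e-06) and 2.99 for Aspm (SE 0.47 and adjusted p 4.36e-05), the 2 genes with the lowest changes in serum. It was smallest for Anln, at 1.54 (SE 0.45 and adjusted p 0.00914), and 1.58 for Ect2, 1.62 for Tpx2 and 1.64 for Hmmr. Without EV 0 h replicate 2 it was not called for Tpx2, at 1.11, or Anln, at 1.02. In all 10 genes the 12 h libraries with E2F1 exceeded those with serum, as in 42.5% of all genes.

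At 6 h the difference was called in 6 of 10, beside 30.3% of all genes. Nusap1 had the largest, 2.05, followed by Ckap2 at 1.85, Racgap1 at 1.58, Aspm at 1.46, Prc1 at 1.26 and Ect2 at 1.14. The count was 3 without EV 0 h replicate 2 or serum 6 h replicate 1. Tpx2, Aurka, Anln and Hmmr did not pass, with differences from 0.51 to 0.86 and SE of 0.43 to 0.46.

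Most other genes of the pathway were also higher in the E2F1 line at 12 h. Of 35 other spindle assembly genes, 14 were higher and 1 lower at 6 h, and 34 were higher and none lower at 12 h, with a median log2 change of 1.95. The largest 12 h changes were in Haus4 (2.83) of the augmin complex, Tubg1 (2.60), which encodes gamma-tubulin, and the kinesin Kif18b (2.53). The smallest were in Haus7 (0.10, not called), Numa1 (0.20) and Clasp1 (0.29). Of 24 other cytokinesis genes tested, 9 were higher and 1 lower at 6 h, and 19 were higher and 1 lower at 12 h, with a median of 1.91. Of all genes 28.8% were higher at 6 h, near the share in both lists, and 31.8% at 12 h. Aurkb (2.94), the kinase of the chromosomal passenger complex, Shcbp1 (2.59) and Kif23 (2.48), the partner of RACGAP1 in centralspindlin, were highest. The septin Sept9 was lower (-0.48), and Chmp4b (-0.14) and Sept2 (-0.12) did not pass.

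In the EV line with doxycycline 14 of the 35 spindle genes and 13 of the 24 cytokinesis genes were lower at 12 h and none higher, where 3.42% of all genes were lower. With serum at 12 h, 20 spindle genes were higher and 3 lower, with a median of 0.64, led by Tubg1 (1.93), Haus6 (1.89) and Rcc1 (1.76). Numa1 (-0.61), Psrc1 (-0.55) and Cdk5rap2 (-0.34) were the 3 lower ones. Of the cytokinesis genes 16 were higher and 1 lower with serum, with a median of 0.45, beside 36% of all genes higher and 29.7% lower. Aurkb (1.42), Incenp (1.33) and Birc5 (1.30), 3 members of the passenger complex, were highest, and Sept2 (-0.61) and Kif23 (-0.33) did not pass while Sept9 was lower (-0.57).

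The G1/S genes were already higher at 6 h. Of 26 such genes, 26 were higher in the E2F1 line at 6 h, with a median of 1.54, and 25 at 12 h, with a median of 1.79. From 6 h to 12 h 7 rose and 2 fell, with a median of 0.0046, where the 10 spindle and cytokinesis genes all rose, with a median of 1.62. With serum at 12 h all 26 G1/S genes were higher, with a median of 2.46, beside a median of 0.28 for the 10. The change with E2F1 minus that with serum at 12 h had a median of -0.94 over the G1/S genes, 4 higher and 13 lower, and of 1.82 over the 10. In the EV line at 12 h of doxycycline 21 of the 26 were lower, with a median of -0.93, beside 10 of 10 and -1.28. In the E2F1 line at 0 h, 18 of the 26 were already higher than in the EV line.

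**Figure D5:**
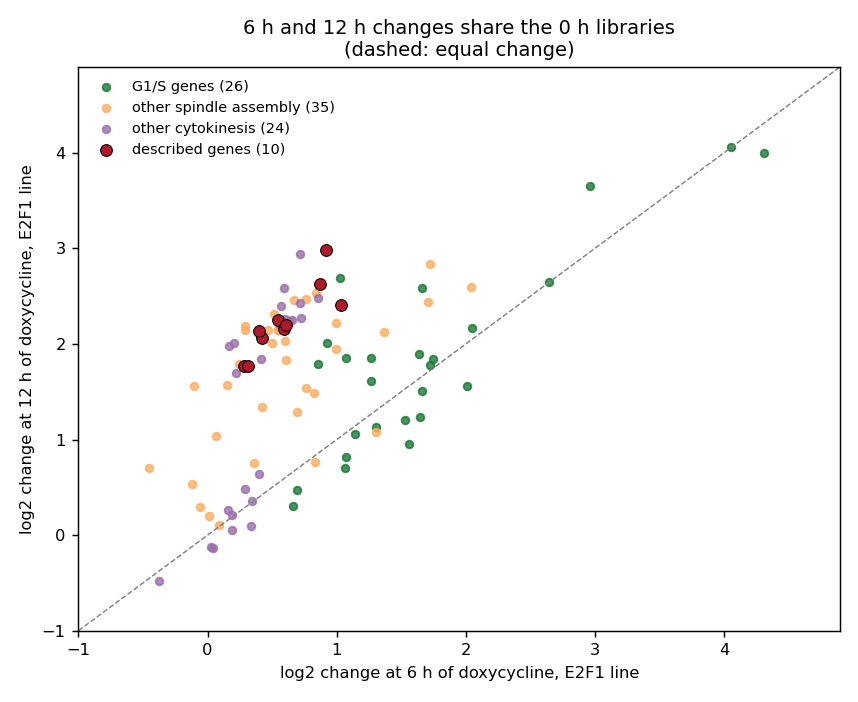
The log2 change at 12 h (vertical axis) is plotted against that at 6 h (horizontal axis) for the E2F1 line, 1 point a gene, with a dashed line of equal change. The 10 genes lie at 0.28 to 1.04 on the horizontal axis and 1.77 to 2.98 on the vertical one, all above the dashed line, while the 26 G1/S genes have a median of 1.54 at 6 h and 1.79 at 12 h, and both axes share the 0 h libraries.

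Over the 11 group means the genes most like the average of the 10 were Kifc1, Kif2c, Kif14, Depdc1a, Kif4, Kif18b, Plk1, Kifc5b, Mxd3 and Knl1. Their Pearson r ran from 0.98 to 0.99, as a description across groups that share libraries. Of all other genes, 1.96% reached an r of 0.9. The 10 genes themselves had r from 0.89 for Aspm to 0.99 for Hmmr with the average of the other members. Over the 7 EV groups alone these values ran from 0.58 for Aspm and 0.59 for Tpx2 to 0.99 for Hmmr. Aspm had the lowest change of the 10 at 2, 6 and 12 h of serum, and Tpx2 the highest at 2 and 6 h. Kifc1 and Kifc5b are near-identical copies, so their values may share reads.

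Positions were taken from GENCODE M21 on GRCm38, in which all 10 identifiers occurred. Prc1 (ENSMUSG00000038943.16, chromosome 7, 80294450 to 80316259) overlaps Rccd1 on the other strand, and Nusap1 (ENSMUSG00000027306.15, chromosome 2, 119618298 to 119651244) overlaps Oip5. The sources used here do not say whether counting used strand, so reads of these neighbours may be included. Tpx2 (chromosome 2, 152847964 to 152895321), Anln (chromosome 9, 22332012 to 22389188) and Ect2 (chromosome 3, 27097222 to 27153878) overlap only small or noncoding genes. Aspm (chromosome 1, 139454772 to 139494091), Racgap1 (chromosome 15, 99620496 to 99651656), Ckap2 (chromosome 8, 22168160 to 22185819), Hmmr (chromosome 11, 40701395 to 40733422) and Aurka (chromosome 2, 172356190 to 172370535) overlap no other annotated gene.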

How the data were processed

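Polyadenylated RNA was sequenced with 150-base reads, per the labels' protocols. The submitters' processing notes name FastQC, Trimmomatic, HISAT2, featureCounts, DESeq2 and the mm10 genome, without roles or order here. The authors deposited a table of normalized counts, rounded to whole numbers, used here as a score on the authors' scale. How it was scaled, and whether counting used strand, is not given in the sources used here. The authors also deposited tables of log2 fold changes with an adjusted p-value for each listed gene, which are quoted only where they are named. Read depth is unknown, so no count test was run.

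Values were taken as log2(value + 1), and fold changes are on that scale. A filter of at least 10 in at least 2 libraries removed none of the 11208 genes. One linear model over the 11 groups (11 residual degrees of freedom) was fitted with limma 3.58.1 in R 4.3.3, with moderation by a trend, for 18 comparisons, each adjusted over 11208 genes by Benjamini and Hochberg, with calls at 0.05. Simulated data were tested for the comparison of E2F1 12 h with 0 h (11208 genes). There 92 of 100 2-fold and 99 of 100 4-fold changes were recovered and 9 unchanged genes were called. The simulation drew independent noise for each library, with 1 spread per gene over all groups, and changed genes at E2F1 12 h only. It held no shift shared by many genes of a library, as seen at EV 0 h. It therefore checks the procedure and does not measure how many calls in the real data are right. Figures were drawn with matplotlib 3.10.9, and promoters and motifs were read in Python 3.11.15 with pandas 2.3.3 and numpy 2.4.6.

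The members and lists were chosen with earlier results of these data known. All 10 members are named. From each other pathway list the 3 highest and 3 lowest changes at 12 h of E2F1 and of serum are named, and the 10 genes most like the members by r over 11 group means, with a range of at least 1 on the log2 scale. Sept2, Sept7 and Sept9 stand for the newer septin symbols, and Chmp4c was not analysed here. Of the table's identifiers 10977 had the same version in GENCODE M21. No column of per-sample values was left out. Alternatives were a pseudocount of 8, no filter, a mean of at least 500 (8730 genes), quantile normalization, equal totals, no trend, a 2-fold minimum, only the groups compared (2 residual degrees of freedom for a pair of groups), a replicate block, each library left out in turn (10 residual degrees of freedom, where the lone library is assumed to vary like other groups), all 2 h doxycycline libraries left out, and levels compared without subtracting 0 h. The promoter windows of 300 and 100 bases were chosen after seeing the data.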

Additional observations from a re-analysis of the deposited data

Results flagged for a closer look

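In 4 comparisons the change of a gene differed between lines or stimuli by a test of the difference itself. At 6 h of doxycycline the E2F1 line and the EV line differed in 4 of 10 genes, beside 22.2% of all genes with a higher change. The 4 ran from 1.26 on the log2 scale for Nusap1 to 0.98 for Racgap1. At 12 h the lines differed in 10 of 10, from 4.21 for Nusap1 to 2.91 for Hmmr, beside 27.3% of all genes. The change with E2F1 differed from that with serum in 6 of 10 genes at 6 h, beside 30.3% of all genes with a higher change. The 6 ran from 2.05 for Nusap1 to 1.14 for Ect2. At 12 h the change with E2F1 differed from that with serum in 10 of 10, from 3.60 for Nusap1 to 1.54 for Anln, beside 25% of all genes. Nusap1 had the largest difference in all 4.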

How the results depend on the processing

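The 10 calls at 12 h of E2F1, from 0 h and from 6 h, and those against the EV line at 12 h kept their direction and their side of the threshold in every alternative tried, and no called value of any comparison changed sign. Other counts of calls moved with the setting. At 6 h of E2F1 4 genes were called, and 1 after quantile normalization or with a 2-fold minimum, 2 with equal totals or no trend, 10 with only the groups compared, and 1 to 3 with a library left out. At 12 h of doxycycline in the EV line 10 were called, and 2 with no trend, 1 with only the groups compared, 4 without the 2 h doxycycline libraries, and 0 to 10 with a library left out. For serum, 5 calls at 6 h became 2 with a 2-fold minimum and 1 to 7 with a library left out, and 2 calls at 12 h became 1 after quantile normalization, with equal totals, no trend or a 2-fold minimum, and 1 to 4 with a library left out. From 6 h to 12 h of serum a left-out library gave 2 to 7, at 2 h of serum 5 to 9, and between lines at 0 h 0 to 1. The 4 genes that differed between E2F1 and EV at 6 h became 1 after quantile normalization, no trend or only the groups compared, 10 without subtracting 0 h, and 0 to 8 with a library left out. Between E2F1 and serum a left-out library gave 3 to 9 at 6 h and 8 to 10 at 12 h. The cause was not tested. Promoters with TTTGAA numbered 2 in the 250 bases before the start, 8 in 300 bases and 7 in 100 bases. Equal totals moved the median of all genes by -0.37 at 2 h and -0.21 at 6 h of serum, by 0.13 from 6 h to 12 h of serum and by -0.12 at 6 h of E2F1. In the difference from EV at 6 h the shift was -0.11, and quantile normalization moved it by -0.12 at 12 h.

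The labels do not say that a replicate number links libraries, and same-numbered deviations correlated across genes at -0.28 to 0.45 over 55 pairs of groups, so the numbers were not taken as pairing. Among the 0, 6 and 12 h doxycycline groups, singled out after their values were seen, they correlated at 0.30 to 0.45 in the EV line and 0.14 to 0.36 in the E2F1 line. Within both same-numbered pairs of the EV line all 10 genes were lower than at 0 h, at 6 h and at 12 h. The share of all genes that did so was not computed. All 10 were higher in replicate 2 in each of these EV groups, so their shared direction does not count as 10 separate results. A replicate block changed 1 call, Anln at 12 h of serum (0.71, adjusted p 0.0398 by limma), which made 3 there in place of 2. With 2 libraries a group and an SE of 0.23 to 0.34, the smallest change from 0 h that was called was 0.59, for Racgap1 at 6 h of E2F1.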

Other observations

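Most fibroblast marker genes were lower in the E2F1 line at 12 h. Of 10, 8 were lower and none higher, with a median log2 change of -0.70, where 29.7% of all genes were lower. At 12 h of serum 6 were lower and 2 higher, with a median of -0.63, where also 29.7% of all genes were lower, and at 12 h of doxycycline in the EV line none passed limma's threshold. Their part in the levels of the 10 spindle and cytokinesis genes was not tested.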
